A study of Rattus norvegicus with 60 samples.

Results

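Hippocampus was compared with cortex in rats that had received no drug. The comparison used the 20 vehicle arrays of these regions, 10 from hippocampus and 10 from cortex, out of 60 arrays in the series, and the arrays were taken by their labels alone. The series profiled hippocampus, cortex and striatum of SD rats after 21 days of lamotrigine (a daily injection of 30 mg/kg under the skin), of LiCl (chow containing 0.2%) or the matching vehicle, with 5 arrays in each group. The vehicle rats formed a pair of dosing arms, plain chow for LiCl and vehicle injection for lamotrigine, and each region had 5 arrays in each arm. The sample descriptions gave the cortex arrays the prefix PFC. The tissue label named mouse brain although the organism was rat, and no age was given. Genes were sought whose level differed between the regions in the same direction in both arms.

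Hippocampus and neocortex are both parts of the pallium, the dorsal wall of the forebrain, and both are built mainly of glutamatergic principal neurons with a minority of GABAergic interneurons. The neocortex is a layered sheet whose layers are told apart by transcription factors and adhesion molecules. The hippocampus has a simpler plan, with granule cells in the dentate gyrus and pyramidal cells in the CA fields, and each of these carries marker genes of its own. The arrays read RNA of the whole dissected piece, so a higher share of a cell type and more RNA of a gene in each cell cannot be told apart.

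Levels are given as log2 of the array intensity, and a difference of 1 on this scale is a 2-fold difference. Differences are hippocampus minus cortex, so positive values are higher in hippocampus. A probe set was called when its limma p-value, adjusted by Benjamini-Hochberg over 31042 probe sets, was under 0.05. The replicates are arrays that the labels list as separate samples. By the animal numbers in the sample descriptions, 8 of 12 animals gave both a hippocampus and a cortex array, and p-values measure only the spread between these arrays. Median intensity lay between 93.54 and 101.1 over the 20 arrays. The spread within an array (interquartile range of log2 values) moved with arm and region together, from 3.48 ± 0.056 (SD, n = 5) in the chow hippocampus arrays to 3.61 ± 0.035 in the injection hippocampus arrays, and it was tried as a covariate. The deposited values carry no detection calls, and the lowest intensity on these arrays was 6.93, so where the lower region lies near 4 on the log2 scale the fold is that of the processed values.

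The regions differed in a large part of what the array measured. With dosing arm as covariate, limma called 11930 of 31042 probe sets (38.4%), 5939 higher in hippocampus and 5991 higher in cortex, or 7411 and 5173 when arrays were centred on their medians. Within the injection arm 10250 probe sets (33%) were called, 5362 higher in hippocampus and 4888 higher in cortex. Within the chow arm 8275 (26.7%) were called, 3775 higher in hippocampus and 4500 higher in cortex, a split that turned to 4943 against 3909 with the centring. A total of 5462 probe sets (17.6%) were called in the same direction in both arms, and with the interquartile range as covariate this count fell to 3115.

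By gene, with the brightest probe set standing for each of 14217 genes, 6148 (43.2%) were called with arm as covariate, and 2958 (20.8%) were called in the same direction in both arms, 1485 higher in hippocampus and 1473 higher in cortex. Only 266 genes (1.87%) also differed at least 2-fold in each arm, 139 higher in hippocampus (0.978%) and 127 higher in cortex (0.893%). Their median difference was 1.42 in size, and 16 of those higher in hippocampus and 17 of those higher in cortex differed at least 4-fold in each arm. The 2-fold limit fell where genes were dense. Dusp1 stood just inside it with differences of -1.0 and -1.018 in the injection and chow arms, and Dok5 just outside with -0.999 and -1.13. The 10 hippocampus and 10 cortex arrays did not overlap for 258 of the 266 genes, against 1381 of all 14217 genes (9.71%). The remaining 8, with overlapping arrays, were Mlf1, Ak7, Cbln1, Apoc1, Nt5e, Hecw2, Fos and Lin7a. Of the 266 genes, 184 were read by 1 probe set. The other 82 had several, and for 66 of these at least 2 probe sets were called in the same direction. Kif26b alone had a probe set called in the opposite direction.

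**Figure D1:**
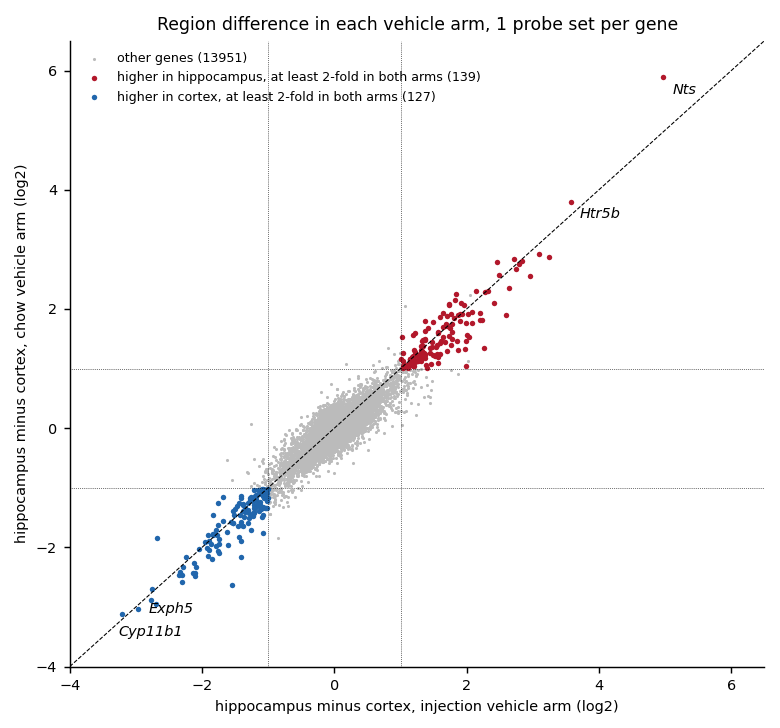
Hippocampus minus cortex difference (log2) of each gene in the injection vehicle arm (horizontal axis) and the chow vehicle arm (vertical axis), 1 probe set per gene, with the 139 genes higher in hippocampus in red, the 127 higher in cortex in blue and all other genes in grey. The dotted lines mark 2-fold and the dashed line equal differences. The coloured genes run from Cyp11b1 at -3.21 and -3.13 to Nts at 4.97 and 5.89. They were chosen for the same sign and at least 2-fold in both arms, which confines them to opposite corners.

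The differences ran largely alike in the arms. Across the 14217 genes, which are not independent replicates, the within-arm differences had a Pearson correlation of 0.868, and 23 genes were called in both arms with opposite signs. The same contrast was then read in 20 arrays that took no part in choosing the genes, 10 of hippocampus and 10 of cortex from LiCl and lamotrigine rats. All 266 genes were called there in the same direction, against 50.2% of all genes called in either direction. A 2-fold difference was kept by 247 of them, where 2.39% of all genes were called at 2-fold.

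Neurotensin showed the widest difference of any gene in either direction. Nts, which encodes this neuropeptide's precursor, measured 9.63, 10.20 and 10.61 (lowest, median and highest) in the 10 hippocampus arrays and 3.86, 4.32 and 6.22 in the 10 cortex arrays. No hippocampus array came near the cortex arrays. The difference was 5.43 ± 0.24 (SE), or 43.1-fold, with an adjusted p of 8.84e-15 in limma. Within cortex the gene was uneven, since 3 injection arrays stood at 5.93, 6.0 and 6.22 and the other two at 4.04 and 4.33, while the chow arrays lay between 3.86 and 4.45. The same 3 injection arrays also stood above the other two for Arg1 (6.09, 5.91 and 6.0 against 4.69 and 4.85) and, by less, for Prox1 (6.87, 6.72 and 6.74 against 6.43 and 6.43). Not all leading genes split this way. In the same order Fibcd1 stood at 4.85, 5.43 and 5.55 against 5.06 and 5.24. Rem2 stood at 5.22, 5.29 and 5.08 against 5.37 and 5.58. What sets these cortex arrays apart was not tested. For Nts the striatum was intermediate, with 8.12, 8.50 and 9.10.

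The next widest difference was that of a serotonin receptor. Htr5b, the 5-HT5B receptor, measured 6.83, 7.27 and 7.67 in hippocampus and 3.43, 3.60 and 3.79 in cortex, a difference of 3.69 ± 0.08 (12.9-fold, limma adjusted p = 8.52e-20). Its striatum values (3.66, 3.88 and 4.09) were also near the bottom of the scale, and were called higher than cortex (cortex minus striatum, -0.30). Htr4, the Gs-coupled 5-HT4 receptor and the last of the 15 genes leading towards hippocampus, measured 6.12, 6.5 and 7.23 in hippocampus and 3.93, 4.41 and 4.72 in cortex, a difference of 2.22 ± 0.13, but was higher still in striatum at 6.51, 7.29 and 7.51.

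Markers of hippocampal principal cells were among the leading genes. Fibcd1, a receptor for acetylated groups that marks CA1 pyramidal cells, measured 7.88, 8.4 and 9.09 in hippocampus and 4.85, 5.43 and 5.69 in cortex, a difference of 3.05 ± 0.12 (8.30-fold, limma adjusted p = 1.16e-15). Prox1, the homeobox factor that specifies dentate granule cells, measured 9.03, 9.32 and 9.81 against 6.41, 6.60 and 6.87, a difference of 2.77 ± 0.09 (6.81-fold, adjusted p = 5.25e-17). Both genes were separated without overlap in each arm. Of the 2 probe sets of Prox1, only 1 was called in both arms. Klk8, the serine protease neuropsin, measured 6.62, 7.26 and 7.93 against 4.02, 4.22 and 4.49, a difference of 3.01 ± 0.13. Lhx9, a LIM-homeobox factor that is also in the list for thalamus and other neighbouring tissue, measured 5.81, 6.94 and 7.18 against 3.75, 4.01 and 4.08, a difference of 2.75 ± 0.13. In striatum Klk8 and Lhx9 had medians of 4.21 and 4.04, close to those of cortex.

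The other 8 of the 15 genes leading towards hippocampus had varied roles. Lpl, lipoprotein lipase, measured 9.38, 9.69 and 9.89 against 6.23, 6.89 and 7.25 in cortex, a difference of 2.82 ± 0.10. Gpr161, an orphan receptor of the primary cilium, differed by 2.78 ± 0.07 and Pkp2, the desmosomal protein plakophilin 2, by 2.71 ± 0.10. Itgbl1, an integrin beta-like protein, differed by 2.62 ± 0.14 and the small GTPase gene Rerg by 2.52 ± 0.10. Rem2, a GTPase that restrains voltage-gated calcium channels, differed by 2.49 ± 0.09, Lrrc10b by 2.31 ± 0.11 and Arg1, arginase 1, by 2.28 ± 0.15. The adjusted p of these 8 genes in limma ran from 8.62e-19 (Gpr161) to 1.24e-11 (Arg1), and none of their hippocampus arrays overlapped a cortex array. Of the 2 probe sets of Lrrc10b, only 1 was called in both arms. Rem2, Lrrc10b and Rerg were not highest in hippocampus, where they lay below striatum (hippocampus minus striatum, -1.58, -1.60 and -0.25).

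**Figure D2:**
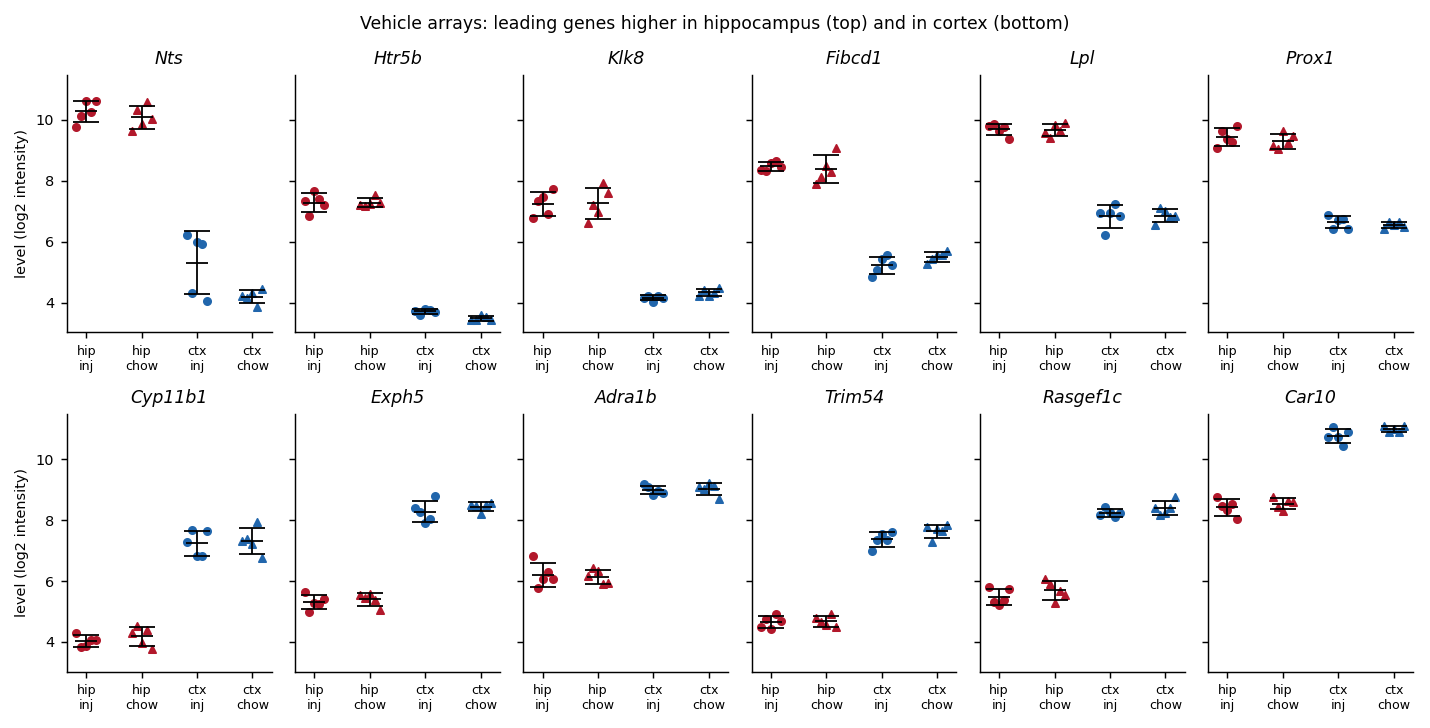
Level (log2 intensity) in every vehicle array of the 6 leading genes higher in hippocampus (top) and higher in cortex (bottom). Hippocampus is red and cortex blue, circles are the injection arm, triangles the chow arm, and bars show mean and SD of 5 arrays. The regions are separate in every panel, and the injection cortex arrays of Nts fall into 3 near 6 and 2 near 4.

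The widest difference towards cortex was that of Cyp11b1, steroid 11-beta-hydroxylase, which makes glucocorticoids. It measured 3.78, 4.07 and 4.53 in hippocampus and 6.75, 7.29 and 7.95 in cortex, a difference of -3.17 ± 0.14, 8.99-fold higher in cortex (limma adjusted p = 4.99e-15). Exph5, a Rab27 effector of vesicle traffic, measured 4.97, 5.39 and 5.63 against 7.89, 8.42 and 8.80, a difference of -3.01 ± 0.10 (8.03-fold, adjusted p = 7.22e-17). No array of either region reached the range of the other, and the striatum medians (3.94 and 4.17) lay below those of hippocampus. That step was called for Exph5 (hippocampus minus striatum, 1.14) but not for Cyp11b1 (0.21, limma adjusted p = 0.179).

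Monoamine receptors stood on this side too. Adra1b, the alpha-1B adrenergic receptor, measured 5.77, 6.11 and 6.82 in hippocampus and 8.70, 9.04 and 9.20 in cortex, a difference of -2.83 ± 0.10 (7.09-fold, limma adjusted p = 2.06e-16). Htr2a, the 5-HT2A receptor at which many hallucinogens act, measured 4.62, 5.33 and 6.24 against 6.96, 8.15 and 8.36, a difference of -2.44 ± 0.13 (5.44-fold, adjusted p = 4.74e-13). Its levels were wide in both regions but did not meet. Of its 4 probe sets, 2 were called in this direction in both arms.

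Among transcription factors and structural genes, Foxp2, a forkhead factor of deep cortical layers and of striatal neurons, measured 3.71, 4.83 and 5.31 in hippocampus and 6.57, 7.0 and 7.34 in cortex, a difference of -2.38 ± 0.17. Striatum was higher again, with 9.35, 9.64 and 9.87. Trim54, a muscle ring-finger protein, measured 4.44, 4.68 and 4.93 against 7.0, 7.58 and 7.83, a difference of -2.83 ± 0.09. Rasgef1c, a Ras guanine nucleotide exchange factor, differed by -2.72 ± 0.10 and Tmem196, a membrane protein, by -2.37 ± 0.09. Car10, a carbonic anhydrase-related protein without enzyme activity, differed by -2.40 ± 0.08, its cortex arrays (10.43, 10.90 and 11.10) lying clear of its hippocampus arrays (8.02, 8.51 and 8.77).

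The rest of the 15 genes leading towards cortex included several named for other tissues. Tnnc2, fast skeletal troponin C, differed by -2.27 ± 0.14, Fhod3, a formin of actin filaments, by -2.29 ± 0.18, the olfactory receptor gene Olr59 by -2.31 ± 0.14, and Catsperz, named for a sperm calcium channel complex, by -2.20 ± 0.11. Bmper, a secreted protein that binds bone morphogenetic proteins, differed by -2.29 ± 0.14. Hs3st2, a heparan sulphate sulphotransferase, differed by -2.19 ± 0.07, with 7.12, 7.47 and 7.82 in hippocampus and 9.30, 9.63 and 9.96 in cortex. Adjusted p in limma ranged from 7.45e-17 (Hs3st2) to 2.03e-10 (Fhod3) over these 6 genes, each without overlap.

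**Figure D3:**
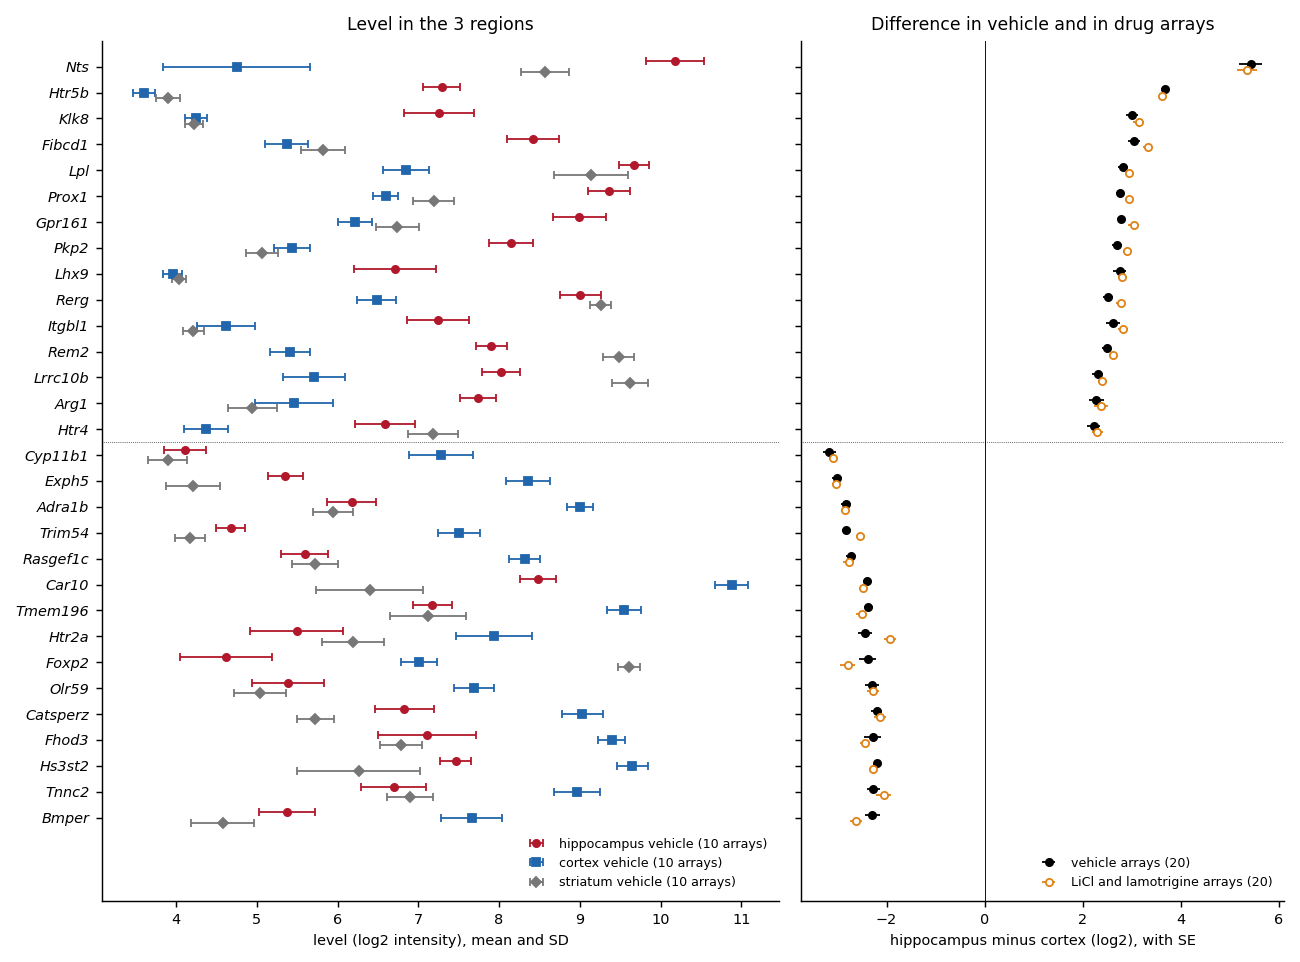
Left, level (log2 intensity, mean and SD of 10 vehicle arrays) of the 30 leading genes in hippocampus (red), cortex (blue) and striatum (grey); right, hippocampus minus cortex difference with SE in the 20 vehicle arrays (black) and in the 20 LiCl and lamotrigine arrays (open orange). Vehicle and drug arrays give the same direction for every gene, for example -2.44 and -1.93 for Htr2a, and the mean level of Rerg, Rem2, Lrrc10b, Htr4 and Foxp2 is highest in striatum.

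Against striatum, the region in which a gene was high was itself raised at least 2-fold (limma, adjusted) for 94 of the 139 genes higher in hippocampus and for 74 of the 127 higher in cortex. Striatum in turn exceeded the higher region at least 2-fold for 6 of the former and 13 of the latter. The remaining 39 and 40 genes were within 2-fold of striatum or not called.

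Promoters of the genes were searched for 4 motifs in the 250 bases before the start site (RefSeq, GRCr8), on both strands. The table of promoters held 11733 of the 14217 genes, 96 of the 139 higher in hippocampus and 99 of the 127 higher in cortex. The E-box CAGATG, of the kind NeuroD factors bind, stood in 10.1% of all promoters, 10.4% of those higher in hippocampus and 12.1% of those higher in cortex. CTTTGA, the TCF/LEF core, stood in 11.2%, 10.4% and 15.2%. The cAMP response element TGACGTCA stood in 2.64%, 3.12% and 4.04%, and the E-box CACGTG in 7.82%, 5.21% and 5.05%. No motif marked more than a minority of either set. Of the 30 leading genes 19 were in the table, and 3 of them held 1 of these motifs. Their upstream sequences are shown because they are the leading genes to which the search applied with a match. Hs3st2 (chr1:185387213-185387462, plus strand) has TGACGTCA, Itgbl1 (chr15:107186542-107186791, plus strand) has CAGATG read on the other strand, and Rasgef1c (chr10:34728323-34728572, plus strand) has CAGATG. The lines run 5′ to 3′ and the motif is in capitals.
Hs3st2: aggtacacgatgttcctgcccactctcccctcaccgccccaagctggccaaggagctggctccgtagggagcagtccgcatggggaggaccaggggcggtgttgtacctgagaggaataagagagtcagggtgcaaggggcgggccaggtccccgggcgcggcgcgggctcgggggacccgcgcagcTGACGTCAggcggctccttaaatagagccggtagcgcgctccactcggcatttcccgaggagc
Itgbl1: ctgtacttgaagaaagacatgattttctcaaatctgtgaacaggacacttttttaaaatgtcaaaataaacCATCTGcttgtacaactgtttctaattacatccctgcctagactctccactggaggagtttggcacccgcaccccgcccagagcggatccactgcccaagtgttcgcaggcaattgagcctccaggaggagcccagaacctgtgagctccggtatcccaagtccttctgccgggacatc
Rasgef1c: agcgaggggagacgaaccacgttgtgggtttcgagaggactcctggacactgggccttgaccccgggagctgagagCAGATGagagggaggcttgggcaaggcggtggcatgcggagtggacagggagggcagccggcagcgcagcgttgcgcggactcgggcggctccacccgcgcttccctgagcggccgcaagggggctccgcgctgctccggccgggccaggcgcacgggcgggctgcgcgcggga

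Marker lists were set beside the labels. The lists were chosen with earlier results of these data known. That of dentate and CA neurons holds the leading genes Fibcd1 and Prox1, and that of neocortical layers holds Htr2a and Foxp2. Their separation is therefore not an independent check of the labels. The mean level of 25 markers of dentate granule and CA neurons lay between 8.50 and 8.76 in the hippocampus arrays and between 7.88 and 8.05 in the cortex arrays. That of 33 markers of neocortical layers lay between 7.33 and 7.63 in hippocampus and between 7.76 and 7.96 in cortex. Neither list overlapped between regions. Striatal medium spiny neuron markers averaged 7.27 in hippocampus and 7.32 in cortex against 11.1 in striatum, so neither region's arrays carried them at the striatal level.

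For the lists below, 10.4% of all genes were called higher in each region in both arms. At 2-fold the shares of all genes were 0.978% (hippocampus) and 0.893% (cortex). Of the 25 dentate and CA markers, 6 were at least 2-fold higher in hippocampus in both arms and 0 were at least 2-fold lower (12 were called higher and 3 lower in both arms at any size). Their median difference was 0.406, against 0.0325 over all genes. Beside Fibcd1 and Prox1 these were Nr3c2, the mineralocorticoid receptor (9.91, 10.28 and 10.58 in hippocampus and 8.13, 8.32 and 8.43 in cortex, 1.97 ± 0.07), Neurod1, a granule cell differentiation factor (1.92 ± 0.08), Bok, a Bcl2 family member (1.5 ± 0.08), and Zbtb20, a factor of CA1 identity (1.15 ± 0.08), for which all 6 probe sets were called. The list was not uniform, since the markers Dsp (0.05) and Tdo2 (0.13) were not called, and Ociad2 (-0.57), Spock1 (-0.42) and Synpr (-0.35) were called higher in cortex.

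The neocortical layer markers split. Of 33, 6 were at least 2-fold higher in cortex in both arms and 4 at least 2-fold higher in hippocampus, with a median of -0.223. Beside Htr2a and Foxp2, those higher in cortex were Cux2, an upper-layer homeobox factor (5.65, 6.61 and 7.36 in hippocampus and 8.26, 8.95 and 9.0 in cortex, -2.21 ± 0.16), Lamp5 (9.43, 9.72 and 10.01 against 11.40, 11.69 and 12.22, -1.97 ± 0.07), Tcerg1l (-1.91 ± 0.09) and Rprm, which marks layer 6 (-1.75 ± 0.17). Those higher in hippocampus were factors that hippocampal neurons are also known to express. Nr2f2, COUP-TFII, measured 8.19, 8.98 and 9.56 against 6.76, 7.16 and 7.55 (1.79 ± 0.14), and Nr4a2, Nurr1, 8.67, 9.01 and 9.72 against 7.0, 7.61 and 7.92 (1.64 ± 0.13). Bcl11b, Ctip2, differed by 1.41 ± 0.09 and Pou3f1 by 1.36 ± 0.08. Fezf2 (-0.07) and Tle4 (0.05), markers of deep layers, were not called.

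Patterning factors of the pallium showed 3 of 22 higher in hippocampus and 2 higher in cortex at this size. Bhlhe22, a basic helix-loop-helix factor, measured 11.38, 11.62 and 11.87 in hippocampus and 9.46, 9.78 and 10.07 in cortex (1.85 ± 0.07), Neurod6 differed by 1.25 ± 0.06, and Lhx9 is given above. Meis2 (-1.35 ± 0.08) and Tox (-1.35 ± 0.09) were higher in cortex. Emx2, required for growth of the hippocampus, was called higher there below the 2-fold limit at 0.79, and its relative Emx1 higher in cortex at -0.46. Of 26 Wnt pathway genes, Wnt4 was at least 2-fold higher in hippocampus (8.41, 8.92 and 9.18 against 6.77, 7.08 and 7.51, 1.73 ± 0.11) and Wnt10a in cortex (-1.22 ± 0.10). Of the other Wnt genes Fzd1 (1.12, and 0.98 in the chow arm) and Wnt2 (0.88) were called higher in hippocampus and the stem-cell receptor Lgr5 (-0.80) in cortex.

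**Figure D4:**
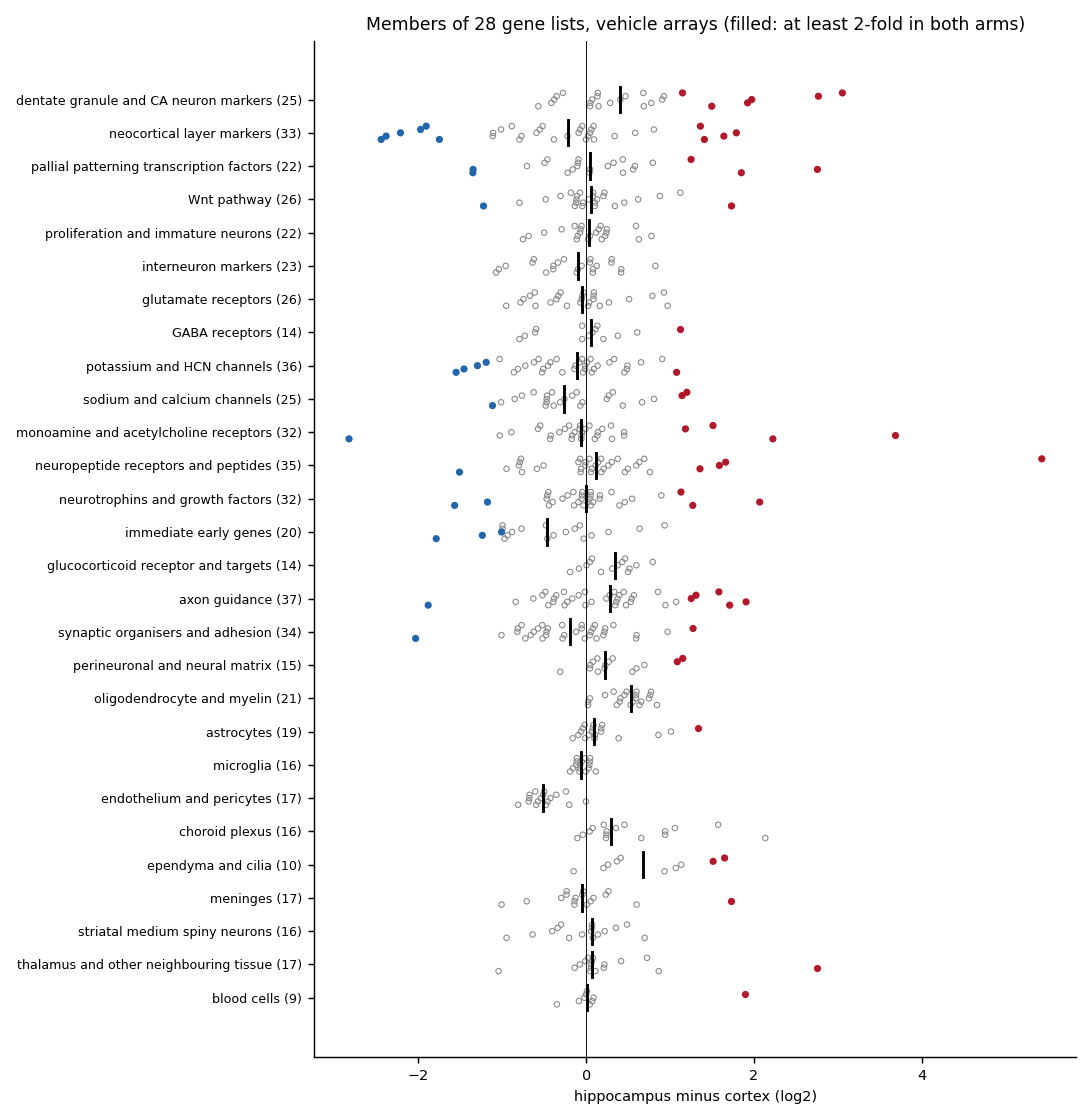
Hippocampus minus cortex difference (log2, horizontal axis) of every measured member of 28 gene lists, with the number of members in brackets. Filled points are at least 2-fold in both arms (red higher in hippocampus, blue higher in cortex), open points are not, and black bars are list medians, from -0.513 for endothelium and pericytes to 0.672 for ependyma and cilia.

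Receptors for monoamines and acetylcholine included 4 of 32 at least 2-fold higher in hippocampus and 1, Adra1b, higher in cortex. Beside Htr5b and Htr4 the former were Htr1a, the 5-HT1A autoreceptor and postsynaptic receptor (6.96, 7.30 and 7.63 against 5.37, 5.82 and 5.99, 1.51 ± 0.07), and Htr2c (1.18 ± 0.14). All 4 are serotonin receptors, but the serotonin receptor Htr2a, which was counted in the list of neocortical layer markers, was at least 2-fold higher in cortex (-2.44). The list median was -0.0577 while its mean level was higher in hippocampus (6.24 against 6.17). Smaller calls in both arms were Chrna4 (-1.03), Hrh3 (-0.89), Adrb1 (-0.57) and Adra2a (-0.55) towards cortex, and Htr7 (0.45) and Drd5 (0.31) towards hippocampus.

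Among 35 neuropeptides and their receptors, 4 were at least 2-fold higher in hippocampus and 1 in cortex (0.978% and 0.893% of all genes). Pdyn, prodynorphin, measured 9.29, 10.06 and 10.60 in hippocampus and 8.13, 8.36 and 8.64 in cortex (1.66 ± 0.14) and was higher again in striatum (median 11.65). Trhr, the thyrotropin-releasing hormone receptor, differed by 1.59 ± 0.14 and Scg2, secretogranin II, by 1.36 ± 0.07. Tacr3, the neurokinin B receptor, was higher in cortex (4.67, 5.17 and 5.54 against 6.09, 6.54 and 7.43, -1.51 ± 0.13). The receptors of neurotensin itself did not share the difference of Nts, at 0.14 for Ntsr1 and -0.09 for Ntsr2, neither called. Receptors of neuropeptide Y went opposite ways below 2-fold, Npy2r at 0.76 and Npy1r at -0.79, both called in both arms.

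Growth factor genes gave 3 of 32 at least 2-fold higher in hippocampus and 2 in cortex (0.978% and 0.893% of all genes). Ntf3, neurotrophin 3, measured 7.20, 7.33 and 8.02 in hippocampus and 4.85, 5.38 and 5.66 in cortex (2.07 ± 0.10). Ret, the signalling receptor for GDNF family ligands, differed by 1.27 ± 0.08, and its co-receptors parted: Gfra1 was called higher in hippocampus at 0.89 and Gfra2 was at least 2-fold higher in cortex (6.67, 7.04 and 7.34 against 8.46, 8.6 and 8.78, -1.57 ± 0.07). Fgfr1 (1.13 ± 0.07) was higher in hippocampus and Inhba, an activin subunit, in cortex (-1.18 ± 0.08). Bdnf differed by 0.75 in the injection arm and 0.17 in the chow arm, and the interaction did not pass (limma adjusted p = 0.07). The list median was -0.00631, with a mean level of 7.54 in hippocampus and 7.48 in cortex.

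More ion channel subunits were called higher in cortex than in hippocampus. Of 36 potassium and HCN channel genes, 4 were at least 2-fold higher in cortex and 1 in hippocampus (0.893% and 0.978% of all genes). At any size 13 and 6 were called in both arms, against 10.4% of all genes in each direction. The list median was -0.105, and -0.144 to -0.018 under the alternatives tried. Those at least 2-fold higher in cortex were the modulatory subunits Kcns1 (4.93, 5.40 and 5.75 against 6.15, 7.01 and 8.13, -1.55 ± 0.17) and Kcnv1 (-1.30 ± 0.06), the sodium-activated channel Kcnt1 (-1.46 ± 0.07) and the ether-a-go-go channel Kcnh1 (-1.19 ± 0.07). Kcnab1, a beta subunit, was higher in hippocampus (10.98, 11.20 and 11.36 against 9.92, 10.10 and 10.22, 1.08 ± 0.04). Of 25 sodium and calcium channel genes, 12 were called higher in cortex and 6 higher in hippocampus in both arms. Their median was -0.26, and -0.281 to -0.0861 under the alternatives tried. The genes at 2-fold were Scn4b in cortex (-1.12 ± 0.13), and the release channel Ryr3 (1.20 ± 0.10) and the beta subunit Scn3b (1.14 ± 0.05) in hippocampus. Scn1a, at -1.01 with arm as covariate, was called but did not reach 2-fold in each arm.

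No member of 26 glutamate receptor genes was at least 2-fold apart in both arms, although 4 were called higher in hippocampus and 9 higher in cortex in both. Among these the AMPA receptor partners separated: Cacng8 (0.97) and Cnih2 (0.93) were higher in hippocampus, and Cacng3 (-0.95) and Cacng2 (-0.75) in cortex. Gria1 (0.79) and Gria3 (-0.61), AMPA subunits, went opposite ways as well. Of 14 GABA receptor genes, Gabra5, the alpha-5 subunit of extrasynaptic receptors, was at least 2-fold higher in hippocampus (11.16, 11.24 and 11.45 against 9.92, 10.18 and 10.35, 1.11 ± 0.05), and Gabra3 (-0.79), Gabrd (-0.73), Gabrb2 (-0.61) and Gabbr2 (-0.60) were called higher in cortex. The median of that list was 0.0535 and its mean level was 8.55 in hippocampus and 8.56 in cortex.

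Of 37 axon guidance genes, 5 were at least 2-fold higher in hippocampus and 1 in cortex. At any size 16 were called higher in hippocampus and 9 higher in cortex in both arms, against 10.4% of all genes in each direction. The list median was 0.281. Epha6, an ephrin receptor, measured 7.74, 8.37 and 8.86 against 5.86, 6.49 and 6.99 (1.90 ± 0.12), and the semaphorin receptors Nrp1 (1.71 ± 0.10) and Nrp2 (1.58 ± 0.10) differed together. Ntng1 (1.31 ± 0.10) and Efnb3 (1.25 ± 0.10) completed the set, and Efna5, an ephrin ligand, was higher in cortex (6.46, 6.94 and 7.28 against 8.50, 8.80 and 9.17, -1.88 ± 0.09). Of 15 matrix genes, Hapln4, a link protein of perineuronal nets (1.15 ± 0.05), and Spon1 (1.08 ± 0.06) were higher in hippocampus. Of the synaptic organisers 15 of 34 were called higher in cortex and 4 higher in hippocampus in both arms, against 10.4% of all genes in each direction. Cbln2 measured 7.4, 7.54 and 7.82 in hippocampus and 9.19, 9.62 and 9.80 in cortex (-2.03 ± 0.07), while its paralogue Cbln1 differed by 1.27 ± 0.22 with overlapping arrays.

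Immediate early genes, which neurons switch on when active, were lower in hippocampus than in cortex. The mean level of the list was 8.14 in hippocampus, 8.62 in cortex and 8.10 in striatum, so hippocampus lay near striatum. Of 20 genes, 11 were called higher in cortex and 2 higher in hippocampus in both arms, and the median was -0.472. At 2-fold in both arms were Egr2 (6.59, 7.27 and 7.83 against 8.29, 9.02 and 9.70, -1.79 ± 0.16), Fos (7.87, 8.42 and 9.23 against 9.18, 9.72 and 10.35, -1.24 ± 0.15) and Dusp1 (-1.01 ± 0.11). For Fos the highest hippocampus array just passed the lowest cortex array. Arc (-1.0), Fosb (-1.0) and Egr1 (-0.97) were called below the limit, and Nr4a3 (0.93) and Jun (0.64) were the exceptions. Among 14 genes of the glucocorticoid receptor and its targets, 4 (Ddit4, Fkbp5, Errfi1 and Hsd11b1) were called higher in hippocampus in both arms, at 0.38 to 0.52, and 0 were called higher in cortex (1 at an unadjusted limma p under 0.05 in both arms). Over all genes 10.4% were called in each direction. Nr3c1, the receptor itself, stood at 0.04.

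Interneuron markers did not reach 2-fold in both arms in either direction. Of 23, 9 were called higher in cortex and 3 in hippocampus in both arms, against 10.4% of all genes in each direction. Crh (-1.07), Vip (-1.04) and Cck (-0.96), peptide genes of the list, had the widest differences, with Cck at 11.99, 12.17 and 12.35 in hippocampus and 12.94, 13.12 and 13.32 in cortex. Npy (-0.62), Sst (-0.48) and Pvalb (-0.34) were called in the same direction. Towards hippocampus the differences of the list reached 0.824, and the list median was -0.0985. Gad1 (0.05) and Gad2 (0.08), the enzymes of GABA synthesis, were not called. Proliferation and immature neuron genes gave 4 of 22 called higher in cortex, among them Dcx (-0.50), and 2 higher in hippocampus, Tubb2b (0.63) and Mki67 (0.19). These counts stand beside 10.4% of all genes called in each direction, and the list median was 0.0347.

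Glial and vascular lists varied in how many members were called, against 20.8% of all genes called in both arms. Oligodendrocyte genes were called higher in hippocampus for 8 of 21 and lower for 0 (also 0 at an unadjusted limma p under 0.05 in both arms), with a median of 0.529 and summary levels of 9.55 to 10.1 in hippocampus and 8.83 to 9.77 in cortex. Endothelial and pericyte genes ran the other way, with 10 of 17 called higher in cortex, 0 higher in hippocampus at adjusted or unadjusted p, a median of -0.513 and levels of 6.70 to 7.27 against 7.33 to 7.63. Of 19 astrocyte genes 3 were called higher in hippocampus: Agt (1.33 ± 0.12), Gfap (1.01 ± 0.06) and Fabp7 (0.86), and 1, Glul (-0.16), was called higher in cortex. Of 16 microglial genes 0 were called in both arms, also at an unadjusted limma p under 0.05.

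Of 10 genes of ependyma and cilia 5 were called higher in hippocampus in both arms, with a median of 0.672 and levels of 5.79 to 6.82 in hippocampus against 5.43 to 5.77 in cortex. Ak7, a ciliary adenylate kinase (4.53, 5.91 and 6.61 against 3.85, 4.18 and 4.75), and Dynlrb2, a dynein light chain (1.51 ± 0.19), were among the 266 genes, and Ak7 overlapped. The choroid plexus list reached 8.02, 7.74 and 6.69 in 3 hippocampus arrays (injection replicates 1 and 3, chow replicate 5) and 6.48 in a cortex array (injection replicate 5). The other arrays lay between 5.27 and 5.71. Of its 16 genes 0 were called in both arms, also at an unadjusted limma p under 0.05. With arm as covariate 9 of the 16 had an unadjusted limma p under 0.05. The list median was 0.299, and the mean level was 6.11 in hippocampus and 5.54 in cortex. Without these 4 arrays, a choice made after seeing the data, 265 of the 266 genes were still called in both arms and 248 were still at least 2-fold in each. Of 17 meningeal genes, Dcn, decorin, was at least 2-fold higher in hippocampus (8.22, 8.88 and 9.29 against 6.54, 7.0 and 7.77) and Dpt was called higher in cortex (-1.01). The other meningeal genes, such as Col1a1 (-0.13) and Bgn (0.01), were not called in both arms. In the list for thalamus and other neighbouring tissue, Lhx9 was at least 2-fold higher in hippocampus, Slc17a6 (0.86) and Hcrt (0.72) were called higher there and Rora (-1.04) in cortex, while the thalamic markers Tcf7l2 (0.22), Prkcd (0.11) and Gbx2 (0.06) were not called. In the blood list Cd3e (6.29, 7.03 and 7.44 against 4.86, 5.03 and 5.42) was the only member of 9 called in both arms, and Ptprc (0.04) was not called. What part these tissues have in the differences of other genes was not tested gene by gene.

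**Figure D5:**
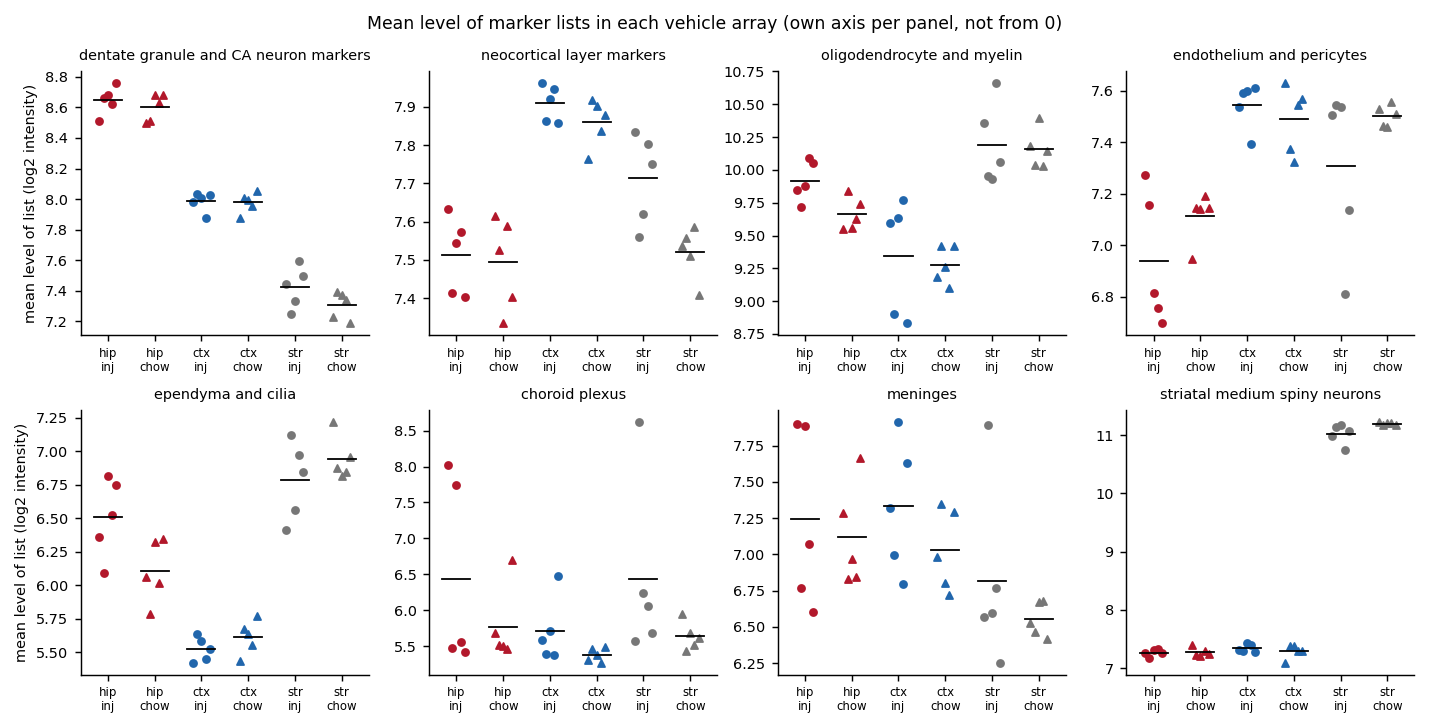
Mean level (log2 intensity) of 8 marker lists in each vehicle array, with hippocampus in red, cortex in blue, striatum in grey, circles for the injection arm, triangles for the chow arm and bars for group means. Dentate and CA markers are highest in hippocampus, medium spiny neuron markers lie near 7.3 in both regions against 11.1 in striatum, and 3 hippocampus arrays stand high in choroid plexus genes.

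Whether region differences depended on the dosing arm was tested directly. The test of the difference itself, limma's interaction of region and arm, called 7 of 31042 probe sets (0.0226%), or 6 of 14217 genes (0.0422%), each with an adjusted p of 0.049. At an unadjusted p under 0.05 there were 5155 probe sets (16.6%), more than the share of about 0.05 that no interaction would give. With the interquartile range as covariate that share was 4.7%, and the cause was not tested. None of the 266 genes was among the 6, and 28 of the 266 had an unadjusted p under 0.05. The count was unstable, since it rose to 341 with animal number as a replicate block and was 0 with the interquartile range, or the choroid plexus level, as covariate. Those 6 genes had small differences of opposite sign in the arms. Cbx5, heterochromatin protein 1 alpha, was higher in hippocampus by 0.33 in the injection arm (7.39 ± 0.13 against 7.06 ± 0.11, SD, n = 5) and lower by 0.34 in the chow arm (7.60 ± 0.11 against 7.94 ± 0.14).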

How the data were processed

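RNA of rat hippocampus, cortex and striatum was read on 1-colour expression arrays, 60 in all. The submitters' processing notes name RMA and R 2.7.2. The deposited values are linear RMA intensity values per probe set, normalized by the authors, with background correction, summarisation and scaling done before deposit. Scanner files were not used here. Log2 of each intensity was taken with no pseudocount.

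Of 31099 probe sets, 57 controls were left out and 31042 were tested. The platform annotation paired 20826 probe sets with 1 symbol (14217 genes), 436 with several and left 9780 unnamed, and a gene was read from its probe set with the highest mean over the 20 vehicle arrays. No arrays held identical values. The number of arrays limits the precision. Tests used limma 3.58.1 (R 4.3.3; data.table, version 1.17.8), lmFit and eBayes with an intensity trend, two-sided, with Benjamini-Hochberg adjustment over all probe sets tested. The region term was fitted with dosing arm as covariate, and within-arm contrasts and the interaction came from a 4-group fit. Drug arrays and striatum were fitted separately. The code was tested on simulated data.

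Among genes called in both arms with the same sign, the 15 in each direction with the largest smaller within-arm difference were named. Members of the 28 lists at least 2-fold apart in both arms were named with their list, other members with their values, and of the interaction up to 5 called genes in each direction. The members and lists were chosen with earlier results of these data known.

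Animal numbers in the sample descriptions paired 5 hippocampus and cortex arrays in the injection arm and 3 in the chow arm. Deviations from the group means correlated with a median of 0.269 (0.0765 to 0.358) and 0.245 (0.202 to 0.286) within these animals, against -0.0518 and -0.0436 between different animals. The fit with animal number as a replicate block is given where it moved a count.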

Additional observations from a re-analysis of the deposited data

Results flagged for a closer look

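In 4 of 176 groups of 5 arrays 1 array lay far from the others of its group, and chance gives about 1 in 20. Htr5b stood at 7.53 in hippocampus chow vehicle replicate 4, where the next array had 7.28. Exph5 stood at 8.19 in cortex chow vehicle replicate 3, where the next had 8.45. Both arrays stayed on their region's side of the gap between the regions. The choroid plexus list had a mean level of 6.69 in hippocampus chow vehicle replicate 5, where the next array had 5.69. The endothelium and pericyte list had a mean level of 6.95 in hippocampus chow vehicle replicate 1, where the next had 7.14.

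The region difference of 6 genes differed between the dosing arms by limma's interaction test (adjusted p = 0.049 for each). The difference in the injection arm minus that in the chow arm was 0.71 ± 0.11 (SE) for Efcab7 (0.53 and -0.18 in the arms), 0.67 ± 0.11 for Cbx5, 0.53 ± 0.09 for Hars1, a histidyl-tRNA synthetase, and 0.42 ± 0.08 for Rpap2, an RNA polymerase II associated protein. It was 0.35 ± 0.06 for Hspa9, the mitochondrial chaperone mortalin, and -0.47 ± 0.08 for Lipf, gastric lipase, whose levels near 4 lie at the bottom of the scale. The interquartile range of the arrays moved with these groups, from 3.48 to 3.61 on the log2 scale, and with it as covariate none of 31042 probe sets was called (1460 at an unadjusted p under 0.05, against 5155 without it).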

How the results depend on the processing

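Every one of the 266 genes kept its sign under every alternative tried. At least 265 were still called in both arms under each alternative that tested them (235 of 235 where dim probe sets were left out), and 238 to 266 were still at least 2-fold in both, with 238 when the interquartile range was a covariate. The 30 leading region genes kept direction and call in all 863 alternative values. With the interquartile range as covariate the injection arm gave 5981 calls, the chow arm 4759 and both arms 3115. At 1.5-fold in place of 2-fold, 1513 probe sets were called in both arms instead of 508. Leaving out 1 array gave 11272 to 12036 calls with arm as covariate, 8868 to 10675 in the injection arm, 7017 to 8456 in the chow arm, 4938 to 5512 in both, 484 to 522 at 2-fold and 250 to 278 genes at 2-fold. The interaction, 7 probe sets, was not stable. It gave 2 after quantile normalization, 31 without dim probe sets, 23 with the 3' to 5' ratio as covariate, 29 without the intensity trend, and 341 with animal number as a replicate block, which moved no other count by over 1.5 times. It gave 0 in limma with arrays centred on their medians (5017 at an unadjusted p under 0.05), with the choroid plexus level as covariate (5106), with the interquartile range (1460) and with the 4 arrays of high choroid plexus level left out (4361; chosen after seeing the data). Leaving out 1 array gave 0 to 393: 393 without hippocampus injection replicate 2, 93 without replicate 1, 14 without hippocampus chow replicate 5, 6 without its replicate 1, 1 without its replicate 4, and 0 without each of the other 15 (4319 to 5290 at an unadjusted p under 0.05). The 6 interaction genes kept their call in 46 alternative values and lost it in 126, and no difference reversed (Efcab7 0.624 to 0.786, Cbx5 0.604 to 0.707, Lipf -0.512 to -0.403). List medians near 0 changed sign under some alternatives, namely growth factors in 11, blood in 6, meninges in 4, and Wnt, proliferation, GABA receptors and medium spiny neurons in 1 each. Some larger medians kept their sign but changed in size. Neocortical layer markers ran from -0.385 to -0.0529 and axon guidance from 0.0681 to 0.312. Sodium and calcium channels ran from -0.281 to -0.0861, and synaptic organisers from -0.284 to -0.106. The cause was not tested.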

Other observations

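Of the 266 genes, 180 were in no list and not among the 30 leading genes. The genes below were chosen from them after their values were seen, and their values are descriptions. Copines, calcium-dependent phospholipid-binding proteins, were split between the regions. Of 8 measured, 3 were at least 2-fold higher in hippocampus in both arms and 2 at least 2-fold higher in cortex. The shares of all genes were 0.978% and 0.893%, but the family was picked for its values. Cpne7 measured 9.51, 10.1 and 10.7 (lowest, median and highest of 10 arrays) in hippocampus and 7.91, 8.08 and 8.38 in cortex, a difference of 1.98 ± 0.10 (SE). Cpne6 differed by 1.36 ± 0.05 and Cpne4 by 1.32 ± 0.11, while Cpne9 (-1.32 ± 0.08) and Cpne5 (-1.10 ± 0.06) were higher in cortex. None of these 5 overlapped between the regions, as was so for 258 of the 266 genes past the same limit. Cpne2 (0.98) was called below the 2-fold limit, and Cpne3 (-0.09) and Cpne8 (0.01) were not called.

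Further genes at least 2-fold apart in both arms are given by family, and the choice of genes past that limit means that a shared direction within a family is not a result. The C/EBP transcription factor genes Cebpb (1.64 ± 0.07) and Cebpd (1.46 ± 0.12) were higher in hippocampus. The receptor activity modifying proteins Ramp1 (-1.20 ± 0.07) and Ramp3 (-1.23 ± 0.13), partners of calcitonin family receptors, were higher in cortex. So were Car8 (-1.52 ± 0.09), Hs3st5 (-1.51 ± 0.12) and Rasgef1b (-1.63 ± 0.07), relatives of the leading genes Car10, Hs3st2 and Rasgef1c. Among signalling genes, Mef2c (-1.97 ± 0.10), Plcb4 (-1.93 ± 0.08), Camk2n1 (-1.85 ± 0.07) and Rgs4 (-1.82 ± 0.15) were higher in cortex. Homer3 (2.05 ± 0.11), the receptor tyrosine kinase gene Kit (2.01 ± 0.09), Dgkg (2.01 ± 0.08) and the calcium sensor hippocalcin gene Hpca (1.13 ± 0.04) were higher in hippocampus. Members of these families that did not reach the limit were not listed, except for the copines.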
